A study of Homo sapiens with 4 samples.

Results

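The genes described here encode enzymes that add methyl groups to histones or take them off, together with the partners with which these enzymes form complexes. They were chosen by name, with no measured value in the rule. The rule holds 58 names for 56 genes, since *NSD2* and *WHSC1*, and likewise *NSD3* and *WHSC1L1*, are names of 1 gene each. Of the 56 genes, 45 were found among the 10147 expressed genes of the deposited table, with *NSD3* listed under its older name *WHSC1L1*. All 45 passed the filter on low values described below. The other 11 genes, *ASH1L*, *EED*, *EHMT1*, *EZH1*, *KDM1A*, *KDM2B*, *KDM5C*, *KMT2D*, *NSD2*, *PRMT1* and *SETDB2*, were not analysed here.

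RNA synthesis was measured by transient transcriptome sequencing (TT-seq) in K562, a human chronic myelogenous leukemia cell line. In TT-seq, cells are briefly fed 4-thiouridine (4sU), and the RNA that takes it up is purified and sequenced, so the reads count new transcripts and not the standing pool of mRNA. Cells of both groups were genome edited and carried an N-terminal dTAG on IWS1, a factor that binds elongating Pol II, and were kept in the same medium. The dIWS1 group received 500 nM dTAG7, a ligand that directs tagged proteins to degradation, and the control group received the solvent DMSO. Both treatments lasted 1 h and ended with 500 µM 4sU for 5 min. Each group had 2 biological replicates. Clones were screened when the edited line was made, and the samples came from 1 edited genotype.

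Methylation of histone tails marks the state of the chromatin around a gene. SET domain enzymes of the COMPASS family methylate H3K4 at promoters and enhancers. NSD enzymes methylate H3K36, and SETD2 methylates it in transcribed gene bodies. DOT1L methylates H3K79, and SUV39H, SETDB1 and EHMT enzymes methylate H3K9 in silent chromatin. Polycomb repressive complex 2 (PRC2) places H3K27 methylation, and Jumonji-type and LSD1-type demethylases remove the marks again. SETD2 binds the phosphorylated tail of elongating Pol II. Earlier work linked IWS1 to SETD2 and to H3K36 methylation, so the H3K36 writers are given in full. The study of these cells reports that SETD2 protein on chromatin was unchanged after IWS1 depletion. The values below are RNA synthesis and do not measure that protein.

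The deposited values are means over the library columns of reads divided by spike-in size factors, and whole reads per column were recovered from them. The recovered columns were 1 control column, which carries the weight of 2 equal columns in the means and was counted once, and 2 different dIWS1 columns without a replicate number, called column 1 and column 2. They held between 20145803 and 29069968 reads in genes, and the counting error of a log2 ratio of the 45 genes lay between 0.0084 and 0.124. All 10 erythroid markers of K562 were in the table, and of 9 markers of other lineages only *LYZ* was, with 60, 38 and 40 reads. *IWS1* itself had counts of 3684 (control), 2334 (column 1) and 2427 (column 2), and its log2 ratio was −0.55 (SE 0.15, limma adjusted p = 8.43e-04). dTAG7 acts on the protein, so this value does not check the depletion.

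In dIWS1 cells, RNA synthesis of most histone methylation genes lay below the control. The median log2 ratio (dIWS1/control) of the 45 genes was −0.48 (quartiles −0.57 and −0.31), against −0.42 (quartiles −0.60 and −0.26) for the 9907 genes tested. The lowest ratios were those of the H3K9 and H3K36 demethylase gene *KDM4B* (−0.83), the H3K79 methyltransferase gene *DOT1L* (−0.74), the H3K36 methyltransferase gene *NSD1* (−0.72) and *KDM4C* (−0.66). At the other end stood the H3K9 demethylase gene *KDM3A* (0.14), the COMPASS partner gene *DPY30* (−0.02), the H3K4 demethylase gene *KDM5B* (−0.15) and the H3K9 methyltransferase gene *SUV39H2* (−0.17).

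Tests used limma voom with the spike-in scaling on all genes with a mean of at least 10 scaled reads, and a gene was called at a Benjamini-Hochberg adjusted p under 0.05. Of the 45 genes, 33 fell (73.3%), 0 rose and 12 were not called. None rose at an unadjusted p under 0.05 or with limma-trend, an alternative to voom, either. In the background of all genes tested, 65.5% fell and 0.101% rose. Among genes with at least 1000 control reads, 26 of the 38 histone methylation genes fell, against 65.2% of all such genes. The share that fell is thus read as near the background. The scaled reads of both dIWS1 columns were below the control in 43 of the 45 genes, and this held for 93.0% of all genes. Both were above it in 1 gene, *KDM3A*, against 1.63% of all genes, and the columns of *DPY30* lay on either side of the control. With 1 control column, the spread in these tests came from the dIWS1 columns alone and the control was assumed to vary like them. In whole cultures, a change in how many cells make a transcript and a change in the amount made per cell cannot be told apart.

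**Figure D1:**
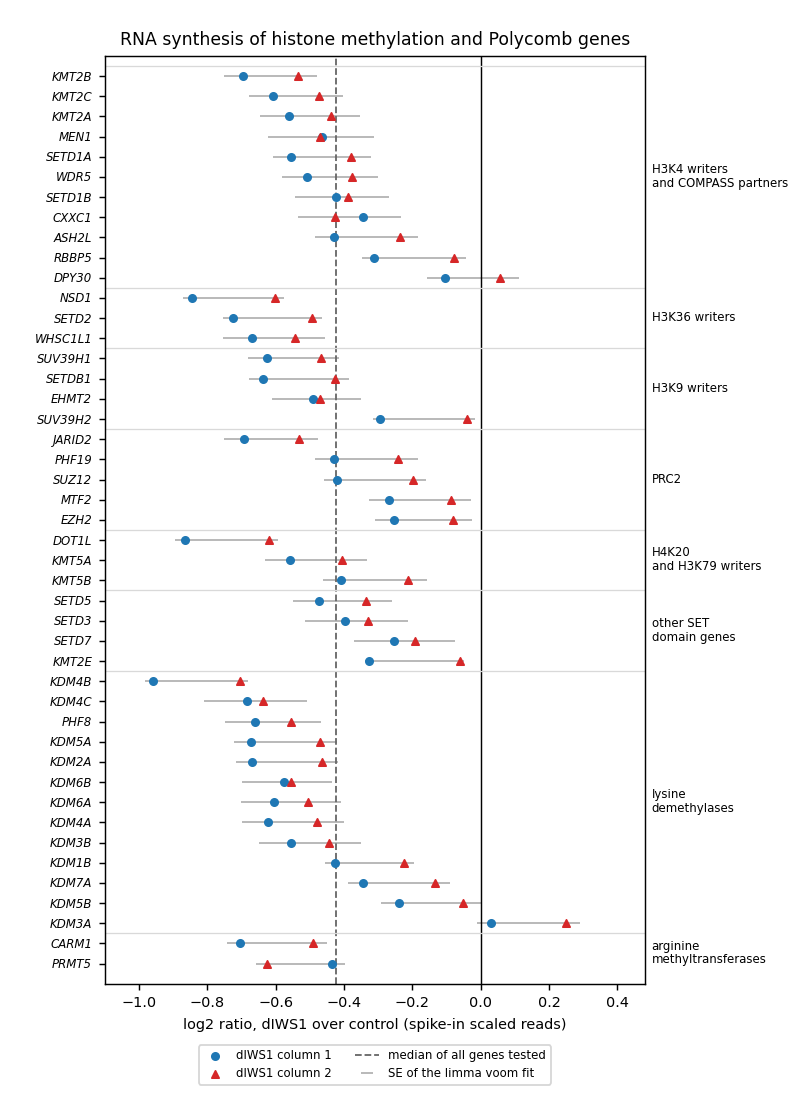
Log2 ratio of spike-in scaled TT-seq reads (dIWS1/control, x axis) for the 45 genes, grouped by role. Circles are dIWS1 column 1, triangles dIWS1 column 2, grey bars the SE around the limma voom estimate, the solid line a ratio of 0 and the dashed line the median of all genes tested (−0.42). Both columns lie left of 0 for 43 genes, and all 3 H3K36 writers lie left of the dashed line in both columns. Measured from the median gene of each column, 24 of the 45 genes lie below it in both columns.

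Column 2 gave higher ratios than column 1. The median log2 difference of column 2 from column 1 was 0.16 over the 45 genes (SD 0.093, range −0.19 to 0.27), and 0.12 over all genes tested, and the 3 genes in which column 2 was lower were *PRMT5*, *CXXC1* and *MEN1*. The spike-in factors of the columns relative to the control were −0.02 and −0.13 on the log2 scale. The part of this scaling difference in single results was not tested. The order of the genes was similar in both columns, with a Spearman coefficient of 0.88 over 45 genes that share the control column, given as a description.

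Because most genes of the table lay below the control, the 45 genes were also read relative to the median gene, with both dIWS1 columns shifted by the same 0.42 on the log2 scale. On this scale the median of the 45 genes was −0.06, with 26 genes below 0 and 19 above. *KDM3A* (0.56, SE 0.15, limma adjusted p = 0.00605) and *DPY30* (0.40, SE 0.14, limma adjusted p = 0.0422) rose relative to the median gene, 0 genes fell and 43 were not called. At an unadjusted p under 0.05, 3 genes lay below the median gene with limma voom and 1 with limma-trend, which called 0 genes in either direction after adjustment. In the background, 4.87% of all genes fell and 2.98% rose on this scale. When each dIWS1 column was instead centred on its own median gene, a setting chosen after seeing the data that removes the offset between the columns, 7 of the 45 genes fell and 10 rose, against 15.1% and 15.3% of all genes. The 7 genes were *KDM4B*, *DOT1L*, *NSD1*, *KDM4C*, *JARID2*, *SETD2* and *WHSC1L1*. The 10 genes were *KDM3A*, *DPY30*, *KDM5B*, *EZH2*, *SUV39H2*, *MTF2*, *KMT2E*, *RBBP5*, *SETD7* and *KDM7A*. Both centrings put as many genes of the table above 0 as below it by construction.

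**Figure D2:**
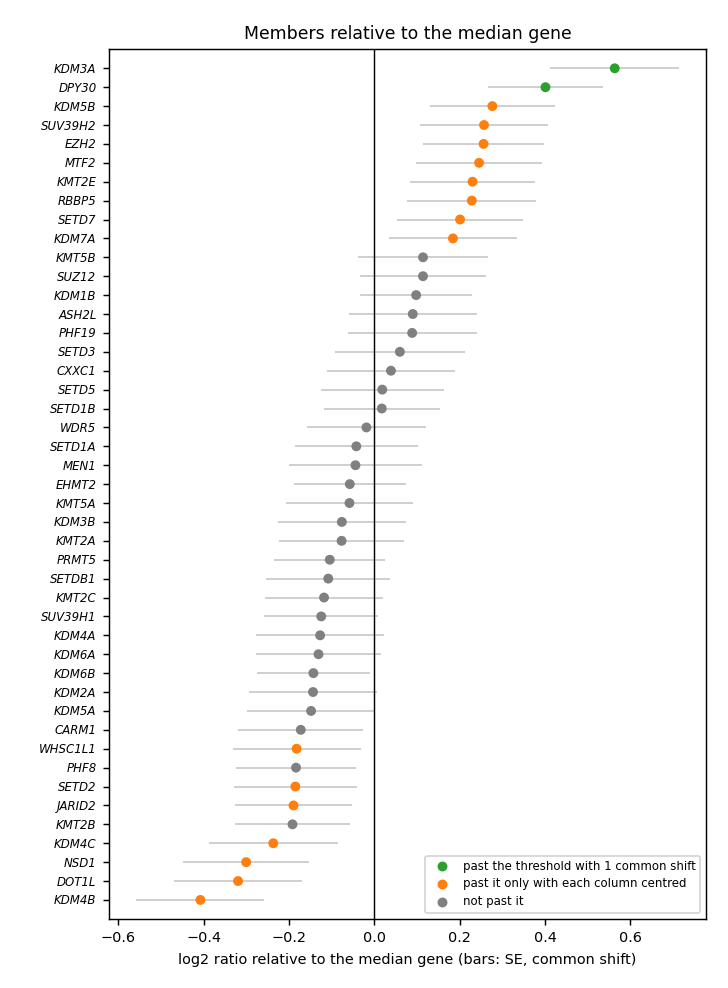
Log2 ratio relative to the median gene (x axis, 1 common shift of both dIWS1 columns, bars SE of the limma voom fit) for the 45 genes in order. Green genes, *KDM3A* and *DPY30*, pass the threshold with the common shift, the 15 orange genes pass it only with each column centred on its own median gene, and grey genes pass in neither.

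The genes at both ends were deeply read. *KDM4B* (GRCh38 chromosome 19, 4969113 to 5153598) had counts of 7617 in the control, 3858 in column 1 and 4257 in column 2. Its dIWS1 columns lay at log2 ratios of −0.96 and −0.70, both far below the control, and the fitted ratio of −0.83 (SE 0.15, limma adjusted p = 5.26e-07) left 56.2% of the control level. *KDM3A* (GRCh38 chromosome 2, 86437044 to 86492716) had counts of 2978, 2991 and 3223 in the same order, with log2 ratios of 0.03 in column 1 and 0.25 in column 2. The first of these columns was level with the control and the second above it, and the fitted ratio of 0.14 (SE 0.15, limma adjusted p = 0.393) was not called. Both genes encode Jumonji-type demethylases that act on H3K9, and *KDM4B* also acts on H3K36.

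Short promoter stretches are shown for the genes with the lowest and the highest ratio and for 3 PRC2 genes, as examples of the genes in which a CCAAT box was found. The 250 bases upstream of each start site were searched in RefSeq (GRCh38.p14) for 40 of the 45 genes, on both strands. The letters CCAAT were found for 19 genes (47.5%), against 37.0% of all 27305 RefSeq genes with a window, which include genes that are not in the table. *MTF2*, *DOT1L*, *DPY30*, *KDM4C*, *KDM5B* and *SUV39H2* were not among the 19 genes, for lack of a match or of a window. A gene counted if any of its windows matched, with 62 windows for the 40 genes and 35116 for the 27305. The GC box GGGCGG was found for 32 genes (80%, against 46.2%), and the TATA box TATAAA for 1 gene (2.5%, against 13.05%). The motifs were searched separately, and an inverted CCAAT box can run into a GC box, so these counts can share bases. The median GC content of the promoter sequences was 69.4%, against 58% of all these RefSeq windows. In the lines below, each of 30 bases 5′ to 3′ on the gene's strand, capitals mark CCAAT or its reverse complement ATTGG.
KDM4B, lowest ratio, plus strand, chr19:4969039-4969068: tggatccggcagCCAATggcagtcggggcg
KDM3A, highest ratio, plus strand, chr2:86441284-86441313: cctgtgtttcagCCAATgagcggcggaagc
SUZ12, PRC2, plus strand, chr17:31936964-31936993: cgctcccgccggCCAATcagagcgccgggc
EZH2, PRC2, minus strand, chr7:148884292-148884321: aaataaaagcgatggcgATTGGgctgccgc
JARID2, PRC2, plus strand, chr6:15245980-15246009: agcctctctctcATTGGttagggggcttgg
The first capital lies at position −62 from the start site in *KDM4B*, −31 in *SUZ12*, −13 in *EZH2* and −77 in *JARID2*, and at −75 or −165 from either of the start sites of *KDM3A* it precedes. The box was thus found at the lowest and at the highest ratio. *DOT1L* and *DPY30*, the genes next to them in ratio, lacked a match or a window, so they are not set against these 2. A match describes these letters and is not a measured binding site.

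All 3 H3K36 writers in the table fell, against 65.5% of all genes tested. *SETD2* encodes the enzyme that trimethylates H3K36 behind elongating Pol II. Its counts were 18872 in the control, 11242 in column 1 and 12216 in column 2, with log2 ratios of −0.72 and −0.49. Both columns were below the control, and the fitted ratio was −0.61 (SE 0.14, limma adjusted p = 1.31e-04). *NSD1*, a dimethylating enzyme, had 11214, 6138 and 6733 reads and ratios of −0.85 and −0.60. Its fitted ratio of −0.72 (SE 0.15, limma adjusted p = 9.21e-06) was the third lowest of the 45 genes. *WHSC1L1* (*NSD3*) had 7780, 4814 and 4866 reads and a fitted ratio of −0.61 (SE 0.15, limma adjusted p = 2.34e-04). Relative to the median gene the 3 genes lay at −0.18, −0.30 and −0.18 in the order given, none of them called with the common shift (limma adjusted p from 0.21 to 0.496) and all 3 called with each column centred. The median of the group was −0.72 in column 1 and −0.54 in column 2.

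The fitted ratios of the 5 PRC2 genes ran from −0.61 to −0.17. *EZH2*, the H3K27 methyltransferase of the complex, had counts of 25204 (control), 20795 (column 1) and 21706 (column 2), and log2 ratios of −0.25 and −0.08. The dIWS1 columns were below the control by less than those of the median gene, and the fitted ratio of −0.17 (SE 0.14, limma adjusted p = 0.275) was not called. *MTF2*, a Polycomb-like partner, had 9170, 7485 and 7867 reads, ratios of −0.27 and −0.09, and a fitted ratio of −0.18 (SE 0.15, limma adjusted p = 0.268). *SUZ12*, the scaffold, had 9161, 6733 and 7275 reads, ratios of −0.42 and −0.20, and a fitted ratio of −0.31 (SE 0.15, limma adjusted p = 0.0557). *PHF19*, another Polycomb-like partner, had 3631, 2652 and 2798 reads and fell by 0.33 on the log2 scale (SE 0.15, limma adjusted p = 0.0419), a call that limma-trend did not make (adjusted p = 0.105).

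*JARID2*, the DNA-binding partner of PRC2, had the lowest fitted ratio of the 5 genes, and its differences from the other 4 were not tested. It had 48067 reads in the control, 29241 in column 1 and 30285 in column 2, with log2 ratios of −0.69 and −0.53. Both columns were below those of each other PRC2 gene listed, and the fitted ratio was −0.61 (SE 0.14, limma adjusted p = 5.4e-05). Relative to the median gene *JARID2* lay at −0.19, while *PHF19*, *SUZ12*, *MTF2* and *EZH2* lay at 0.09, 0.11, 0.25 and 0.26. None of the 5 was called with the common shift. With each column centred, *JARID2* fell (limma adjusted p = 0.00523), and *EZH2* (limma adjusted p = 4.12e-04) and *MTF2* (limma adjusted p = 0.00322) rose. The median of the 5 genes was −0.31, and it was −0.42 in column 1 and −0.20 in column 2, which differs from the value of both columns by more than 1.5 times. *SUZ12* and *KMT2C* have near-identical copies elsewhere in the genome, and only unique alignments were counted, so their levels are uncertain.

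Of the 11 H3K4 writers and COMPASS partners, 9 fell, against 65.5% of all genes tested, and their median was −0.44. The methyltransferase genes *KMT2B* (−0.62), *KMT2C* (−0.54), *KMT2A* (−0.50), *SETD1A* (−0.47) and *SETD1B* (−0.41) all fell. *KMT2C* was the most deeply read of the 45 genes, with 52410, 33803 and 34389 reads. The subunits shared by COMPASS complexes were less alike. *WDR5* (−0.44) and *ASH2L* (−0.33, limma adjusted p = 0.0421) fell, while *RBBP5* lay at −0.20 (−0.31 in column 1 and −0.08 in column 2, SE 0.15, limma adjusted p = 0.234) and *DPY30* at −0.02 (SE 0.14, limma adjusted p = 0.881), both not called. The call of *ASH2L* was not made by limma-trend (adjusted p = 0.116). *DPY30*, a small adaptor of the core, had counts of 1095 (control), 1002 (column 1) and 1038 (column 2). After scaling, column 1 was below the control (−0.10) and column 2 above it (0.06). *MEN1*, which encodes menin, a partner of KMT2A and KMT2B, had the fewest reads of the 45 genes (236, 168 and 155) and fell by 0.47 on the log2 scale. *CXXC1*, which encodes the CpG-binding partner of SETD1 complexes, was the shortest gene with 5.35 kb and fell by 0.38 on the log2 scale.

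Of the 4 H3K9 writers, 3 fell, against 65.5% of all genes tested. These were *SUV39H1* (−0.55), *SETDB1* (−0.53) and *EHMT2* (−0.48), with 433, 2271 and 502 control reads. *SUV39H2*, the paralog of *SUV39H1*, had 2671 reads in the control, 2144 in column 1 and 2364 in column 2. Its ratios of −0.29 and −0.04 put column 2 close to the control, and the fitted ratio of −0.17 (SE 0.15, limma adjusted p = 0.302) was not called. The difference between the paralogs was not tested.

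Of the genes for H4K20 and H3K79 methylation, *DOT1L* and *KMT5A* fell. *DOT1L* had counts of 5818 in the control, 3140 in column 1 and 3447 in column 2, with log2 ratios of −0.87 and −0.62. Its fitted ratio of −0.74 (SE 0.15, limma adjusted p = 7.9e-06) was the second lowest of the list, and relative to the median gene it lay at −0.32 (limma adjusted p = 0.186). *KMT5A*, the H4K20 monomethylase, fell by 0.48 on the log2 scale, and *KMT5B*, which adds further methyl groups to H4K20, lay at −0.31 (limma adjusted p = 0.0607). The fitted ratios of the 4 other SET domain genes were above the median gene, with *SETD5* (0.02) and *SETD3* (0.06) close to it. None of the 4 was called relative to the median gene with the common shift. *SETD5* (−0.40) and *SETD3* (−0.36), an actin histidine methyltransferase, fell, while *SETD7* (−0.22) and *KMT2E* (−0.19, with −0.33 in column 1 and −0.06 in column 2) were not called. The call of *SETD3* was not made by limma-trend (adjusted p = 0.0838).

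Lysine demethylase genes formed the largest group and held both ends of the list. Of the 13 genes, 10 fell, against 65.5% of all genes tested, and the median was −0.55. The KDM4 genes, which act on H3K9 and H3K36, lay at −0.83 (*KDM4B*), −0.66 (*KDM4C*) and −0.55 (*KDM4A*). *KDM4C* had counts of 6477, 3965 and 3795 and ratios of −0.68 and −0.64, the closest pair of columns among the 4 lowest genes (limma adjusted p = 6.81e-05 for the fitted ratio). The H3K36 demethylase gene *KDM2A* (−0.57), the H3K27 demethylase genes *KDM6B* (−0.57) and *KDM6A* (−0.55), the H3K9 and H4K20 demethylase gene *PHF8* (−0.61) and the H3K4 demethylase gene *KDM5A* (−0.57) fell as well.

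Some paralogs of these enzymes differed in their values, while others, such as *KDM6A* (−0.55) and *KDM6B* (−0.57), lay close together. *KDM5B* had counts of 13069 (control), 10882 (column 1) and 11476 (column 2), ratios of −0.24 and −0.05, and a fitted ratio of −0.15 (SE 0.15, limma adjusted p = 0.356), while *KDM5A* lay at −0.57. *KDM3B* fell by 0.50 on the log2 scale (7801, 5219 and 5227 reads), while *KDM3A* was at 0.14. Both columns of *KDM3A* were above both columns of *KDM3B*. *KDM7A* lay at −0.24 (−0.35 in column 1 and −0.13 in column 2, limma adjusted p = 0.143). *KDM1B*, a flavin-dependent H3K4 demethylase gene, fell by 0.33 on the log2 scale (limma adjusted p = 0.0229), a call that limma-trend did not make (adjusted p = 0.0544). The differences between paralogs were not tested. The arginine methyltransferase genes *CARM1* (−0.60) and *PRMT5* (−0.53) both fell, and *PRMT5* was the gene in which column 2 was furthest below column 1 (−0.62 and −0.43).

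The level of synthesis per length of gene varied more among the 45 genes than it moved between the groups. In scaled reads per kb of the RefSeq gene span, the control level ran from 12.7 in *KDM1B* to 325 in *EZH2*, with a median of 66.4. *SETD5* (223 per kb), *ASH2L* (181), *JARID2* (173) and *KMT2C* (172) followed *EZH2* in this order, and *JARID2* and *KMT2C* differed by less than the columns of either. *EZH2* remained the highest in column 1 (272 per kb) and column 2 (307 per kb). *KDM1B* (12.7 per kb), *KDM4C* (14.1) and *PHF8* (14.6) were the lowest in the control.

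**Figure D3:**
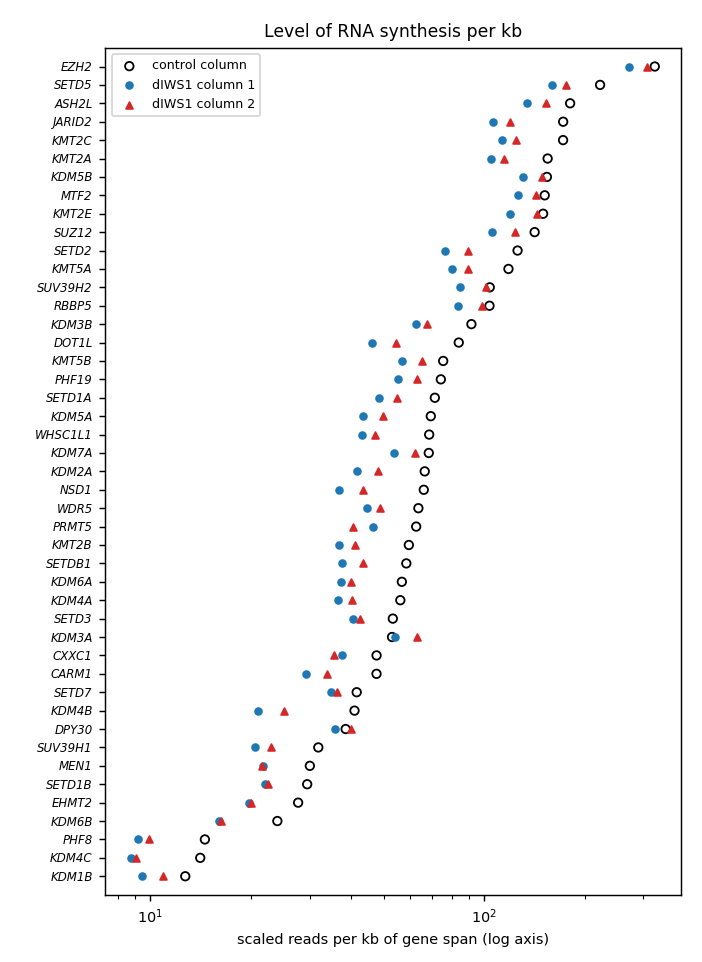
Scaled TT-seq reads per kb of RefSeq gene span (x axis, log scale) for the 45 genes in order of the control level. Open circles are the control column, filled circles dIWS1 column 1 and triangles dIWS1 column 2. Levels run from 12.7 per kb in *KDM1B* to 325 per kb in *EZH2*, and *KDM3A* is the gene with both dIWS1 columns above the control.

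The genes of the list were longer and more deeply read than the table as a whole. Their spans ran from 5.35 to 455 kb with a median of 63.2 kb, against 28.1 kb over all genes tested, and their median control count was 4475 reads, against 1131. The GC content of the spans ran from 37.3% to 60.1% with a median of 42.9%, against 44.4%. Across the 45 genes, which share libraries and the control column, the log2 ratio had a Pearson r of −0.40 with GC content (Spearman −0.34) and of −0.23 with log10 length (Spearman −0.33). Over 9860 genes tested with a span these coefficients were −0.29 (−0.34) with GC content and 0.01 (−0.02) with length. For the 45 genes the columns differed, with a Pearson r with log10 length of −0.33 in column 1 and −0.12 in column 2. With GC content it was −0.32 in column 1 and −0.45 in column 2. Genes are not independent replicates, and the coefficients are descriptions.

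In the 11 genes with a GC content under 40%, the median log2 ratio was −0.24 (all genes of this class −0.32). These were *KDM3A*, *SUV39H2*, *EZH2*, *MTF2*, *KMT2E*, *KDM7A* and *SETD5*, and at the lower end *KMT2C*, *KDM6A*, *KDM5A* and *WHSC1L1*. In the 14 genes with a GC content of at least 50% the median was −0.48 (all genes of this class −0.54). *KDM4B* (57.3%) and *DOT1L* (59.5%) belonged to this class, while *NSD1* (42.6%) and *KDM4C* (40.4%) were low at a GC content under 45%. Ratios in the 18 genes between 40% and 45% had a median of −0.43 (all genes −0.36). The 2 genes between 45% and 50% had a median of −0.54 (all genes −0.43). The part of GC content in the single values was not tested.

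**Figure D4:**
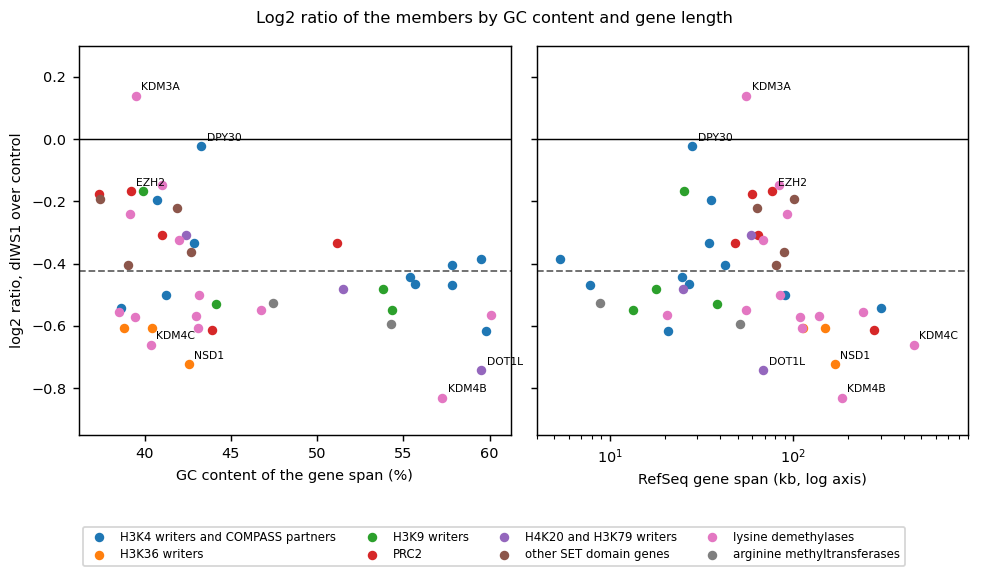
Fitted log2 ratio (dIWS1/control, y axis) of the 45 genes against GC content of the gene span (left, percent) and length of the span (right, kb, log scale), colored by role, with the dashed line at the median of all genes tested (−0.42). Genes with a GC content under 40% reach from −0.61 to 0.14, and genes of at least 50% from −0.83 to −0.33.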

How the data were processed

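TT-seq libraries came from 2 control and 2 dIWS1 samples. Per the submitters' processing notes and the methods of the study, the authors aligned read pairs with STAR 2.6.0 to GRCh38 plus spike-ins, kept unique alignments, counted pairs per RefSeq gene by strand, removed overlapping genes, kept genes with a median RPK over 10 and fitted DESeq2 with spike-in size factors. The deposited table holds 1 signal per gene, the mean over the 4 columns of that fit of reads divided by size factors. It also holds the authors' comparison (log2 fold change, standard error, statistic and p-values), which is neither printed nor compared here. The deposited log2 column served only to tell which recovered columns were dIWS1 and which control.

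Whole reads were recovered from the means alone. Low means were whole multiples of 3 steps (0.495 for the control with the weight of 2 columns, 0.252 and 0.272 for dIWS1 columns 1 and 2), which gives size factors of 1.01, 0.993 and 0.919. Of 10136 genes with a mean above 0, 10126 (99.9%) had 1 solution and the 10 with several were left out. Above a mean of 5000 the search allowed log2 differences up to 1 between dIWS1 columns and 2 against the control. Of 1500 means shifted at random, 36 could be split, 35 of them among the 300 with means over 10000, the range of the most deeply read genes printed, so the check is weaker there. In a simulated table whose genes all had means below 5000, 2888 of 2888 genes were recovered. The bounded search above 5000 was not part of this simulation. The columns held 29069968, 20145803 and 20373592 reads in genes. PCR reads without molecular identifiers are not independent molecules, so errors from counts cover counting only.

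Reads were fitted with limma 3.58.1 voom (R 4.3.3) on 9907 genes with a mean of at least 10 scaled reads, library sizes in proportion to the size factors, and Benjamini-Hochberg adjustment over all of them. Adjusted p-values in the text are from this fit unless another is named. Ratios of single columns used a pseudocount of 0.5. In data simulated for this comparison on 9907 genes, 170 of 200 changed genes and 5 unchanged ones were called. The simulation changed 200 genes, whereas 6494 of 9907 genes were called lower in the real columns. Its counts thus describe the simulated data and do not give the error rates of the real fit. Alternatives were other scalings, filters, thresholds and pseudocounts, limma-trend and the control entered 2 times. The columns may differ for technical reasons, and p-values measure only the spread between them. Spans and GC content came from RefSeq (GRCh38.p14) and the genome, with 9351 genes matched by symbol, 576 by synonym, 169 by gene number and 51 not matched. Python 3.11.15 with numpy 2.4.6, pandas 2.3.3, numba 0.67.0 and matplotlib 3.10.9 was used.

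Every gene of the list could be named. Reads of every column were given for H3K36 writers, PRC2 genes, genes called relative to the median gene, and the 4 lowest and 4 highest ratios. Of related genes up to 2 lowest and 2 highest were named. Other reads were added after their values were seen. The members, lists and role groups were chosen with earlier results of these data known.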

Additional observations from a re-analysis of the deposited data

How the results depend on the processing

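The count of 33 histone methylation genes that fell (0 rose) was 7 (10 rose) with scaling by total reads and 0 (2 rose) relative to the median gene, where the scaling is the cause by construction. It stayed between 27 and 36, with 0 that rose, under the other 7 alternatives. Relative to the median gene (0 fell, 2 rose), 7 fell and 10 rose with scaling by total reads and with each column centred, the latter chosen after seeing the data. The genes that rose became 0 with limma-trend at pseudocounts of 0.5 and 1 and 1 at an adjusted p under 0.01. The count that fell was 1 at a threshold of 0.1 and 2 with the control entered 2 times, and the cause was not tested. Over all genes, limma-trend called 277 lower and 125 higher relative to the median gene (main 482 and 295).

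The median log2 ratio of −0.48 became −0.0574 relative to the median gene and −0.0394 with total reads. With either dIWS1 column left out it lay between −0.51 and −0.43. Signs turned, relative to the median gene and with total reads, for PRC2 genes (0.11 and 0.13), other SET domain genes (0.13 and 0.15), *SETD1B* (0.0175 and 0.0354), *SETD5* (0.0186 and 0.0370), *CXXC1* (0.0390 and 0.0557), *SETD3* (0.0599 and 0.0780), *PHF19* (0.0887 and 0.11), *ASH2L* (0.0901 and 0.11), *KDM1B* (0.0980 and 0.12) and *DPY30* (0.40 and 0.42). *DPY30* was not called with the spike-in scaling. Signs turned in the same way for 10 further genes not called with that scaling, *SUZ12* (0.11 and 0.13), *KMT5B* (0.11 and 0.13), *KDM7A* (0.18 and 0.20), *SETD7* (0.20 and 0.22), *RBBP5* (0.23 and 0.25), *KMT2E* (0.23 and 0.25), *MTF2* (0.25 and 0.26), *EZH2* (0.26 and 0.27), *SUV39H2* (0.26 and 0.27) and *KDM5B* (0.28 and 0.30). With the control entered 2 times, *SUZ12*, *KMT5B* and *SETD7* fell as well.

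No paired analysis was possible because the columns carry no replicate number. Counts of calls without 1 dIWS1 column were not run, since 1 column against 1 leaves no spread, and the control could not be left out. The counting error stays under the SE of 0.13 to 0.15 that the dIWS1 columns give, but that SE includes the offset between these columns. In *MEN1*, the gene with the fewest reads, the counting error of 0.124 was near the SE of 0.155 (0.162 with each column centred). Depth thus limits the genes with few reads.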

Other observations

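Genes of related complexes outside the list gave values in the same range. Of 58 such genes named, 47 were tested, 34 fell, 0 rose and 13 were not called, with a median log2 ratio of −0.40. In the background of all genes tested, 65.5% fell and 0.101% rose. The lowest were *PRMT6* (−0.81), an arginine methyltransferase gene with 106, 56 and 58 reads, and *PCGF3* (−0.78), a Polycomb repressive complex 1 (PRC1) gene with 2999, 1625 and 1678 reads. The highest were *PSIP1* (−0.02), which encodes an H3K36 methylation reader, with 4175, 3823 and 3955 reads, and *SMYD2* (−0.05), a lysine methyltransferase gene with 2190, 2004 and 2001 reads. Neither of the last pair was called.

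PRC1 ubiquitinates H2A and binds the mark of PRC2. Of 17 PRC1 genes tested, 14 fell, against 65.5% of all genes tested, and the median was −0.40, with a range of −0.78 to −0.11. Other partners of PRC2 and COMPASS had a median of −0.34, with 7 of 11 that fell. Other writers and erasers had a median of −0.54, with 10 of 15 that fell, and H3K9 and Polycomb readers a median of −0.36, with 3 of 4 that fell. Relative to the median gene, 0 of the 47 related genes were called with the common shift, by limma voom or limma-trend, and at an unadjusted p under 0.05 limma voom put 3 below and 7 above it. With each column centred, 5 fell and 9 rose, against 15.1% and 15.3% of all genes.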
